A study of Mus musculus with 16 samples.

Results

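The 38 genes described here carry out fatty acid oxidation and ketone body metabolism or answer to PPAR-alpha, the nuclear receptor that senses fatty acids. They were chosen by name, with earlier results of these data known. All 38 were found among the 24421 genes of each count file and among the 13429 genes with enough counts for a test. They comprise Ppara itself, 4 genes of the carnitine shuttle, 7 acyl-CoA dehydrogenases and electron transfer proteins, and 5 enzymes of the later steps of the mitochondrial cycle. The others are 4 enzymes for unsaturated fatty acids, 3 ketone body enzymes, 4 peroxisomal genes, 4 acyl-CoA thioesterases, 2 acyl-CoA synthetases and 4 regulators that respond to PPAR.

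The samples were bulk RNA-seq libraries of intestinal epithelium, which EDTA had loosened from jejunal and ileal segments of the same mouse. The mice were wild-type C57BL6/J animals, 4 at postnatal day 6 (P6), before weaning, and 4 at P36, after weaning. Each age had 2 females and 2 males, so the P6 jejunum, P6 ileum, P36 jejunum and P36 ileum groups hold 4 libraries each. Such epithelium contains every epithelial cell type and some underlying cells, and fewer cells of a type and less RNA per cell cannot be told apart in bulk samples.

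Fatty acids enter mitochondria as carnitine esters, which Cpt1a makes, Slc25a20 carries across and Cpt2 turns back into acyl-CoA. Repeated rounds of dehydrogenation, hydration, dehydrogenation and thiolysis then release acetyl-CoA. Ketogenic cells condense it, a path that begins with Acat1 and ends with Bdh1, whereas cells that burn ketone bodies need Oxct1, which activates acetoacetate. PPAR-alpha induces many of these genes where fatty acids are plentiful, as they are on a diet of milk.

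Depth ranged from 12159237 to 25947276 counts per library. P6 ileum replicate 2 stood apart with 188 CPM (counts scaled for library size with TMM factors) of 5 smooth muscle genes, where no other library exceeded 2.99 CPM. P6 ileum replicate 4 stood apart in the members: 8 of the 38 lay over 1 log2 unit below the mean of the other 3 P6 ileum libraries, and none lay as far above. Across all 38 its deviation followed transcript GC content (Spearman's rho -0.79, a description over genes of 1 library), and over 12948 tested genes rho was -0.78, against -0.22 to 0.62 in the other 15 libraries. The counts of members that passed the regional, interaction and ileal age tests are therefore also given without it, as is a result of Acads and of Etfdh. The shares of all tested genes given below belong to the fit with all libraries. Counts from fits that leave out a library have no such share, so a rise in them is no result about the members. All other gene levels and fold changes include P6 ileum replicate 4. Among these are the P6 ileum levels of Acadvl, Bdh1 and Ucp2, where it lay far from the rest of its group. Those of Etfb, Ech1, Acaa1a, Acaa1b and Acaa2, where this library lay over 1 log2 unit below the others, are also among them. Below, ± is the SD of 4 libraries for a level and the SE of the edgeR fit for a log2 fold change. The summed level of 8 enterocyte markers also moved with the groups, from 74666 to 95813 CPM in P6 jejunum and 11190 to 18714 CPM in P6 ileum to 18841 to 26625 CPM and 5724 to 20457 CPM at P36. Such a sum follows its most abundant genes and is no measure of the number of enterocytes. Of the secretory cells, 6 goblet markers summed to 1746 to 2355 CPM and 2058 to 4182 CPM at P6 and 8025 to 9475 CPM and 10371 to 18886 CPM at P36, and 5 Paneth markers to at most 79.5 CPM at P6 and at least 3375 CPM at P36. The 4 macrophage markers summed to 416 to 499 CPM in P6 jejunum and 155 to 343 CPM in P6 ileum, and to 2.12 to 15.1 CPM and 1.71 to 6.33 CPM at P36. Csf1r, a cytokine receptor, carried this sum at P6 (455 ± 34.4 and 244 ± 74.2 CPM), where Lyz2, Adgre1 and C1qa had at most 4.39 CPM in any library. The 6 adipocyte markers summed to 339 to 402 CPM and 45.8 to 118 CPM at P6 and 29.5 to 54.9 CPM and 3.27 to 21.1 CPM at P36, nearly all of it from Cidec, a lipid droplet protein. Of the other adipocyte genes, Lep, Plin1, Retn and Cfd were at 0 in all libraries, and Adipoq in all but P36 ileum replicate 2 (0.170 CPM). The part of these cell types in the results was not tested.

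Summed over all members, the module was most abundant in the P6 jejunum and less abundant after weaning than before it. Their share of all counts (mean ± SD, n = 4) was 1.03 ± 0.0524% in P6 jejunum, 0.679 ± 0.0310% in P6 ileum, 0.515 ± 0.0188% in P36 jejunum and 0.486 ± 0.0607% in P36 ileum. In TPM, counts per exon length scaled to the same total in every library, they summed to 10790 ± 624 and 7636 ± 346 at P6 and to 4912 ± 222 and 4370 ± 406 at P36, jejunum first. The P6 groups did not overlap each other or the P36 groups in this sum, whereas the P36 groups overlapped. The median member gave another order on the log2 CPM scale, with 7.57 ± 0.15 in P6 jejunum, 6.74 ± 0.07 in P6 ileum, 7.05 ± 0.08 in P36 jejunum and 6.82 ± 0.12 in P36 ileum, so that the ileal groups overlapped and the P6 ileum lay below the P36 jejunum. On the log2 TPM scale the medians followed the order of the sums (7.42 ± 0.09, 6.99 ± 0.04, 6.58 ± 0.10 and 6.47 ± 0.15). Acaa2, the thiolase of the mitochondrial cycle, led the P6 jejunum (1454 ± 181 TPM), followed by Hadh, a hydroxyacyl-CoA dehydrogenase (1375 ± 70.7 TPM), and Plin2, a coat protein of lipid droplets (1031 ± 90.7 TPM). Together these made up 35.8% of the members' TPM there. Oxct1 was the last of the list in the P6 jejunum (3.38 ± 0.360 TPM) but stood at 155 ± 22.2 TPM in the P36 ileum.

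**Figure D1:**
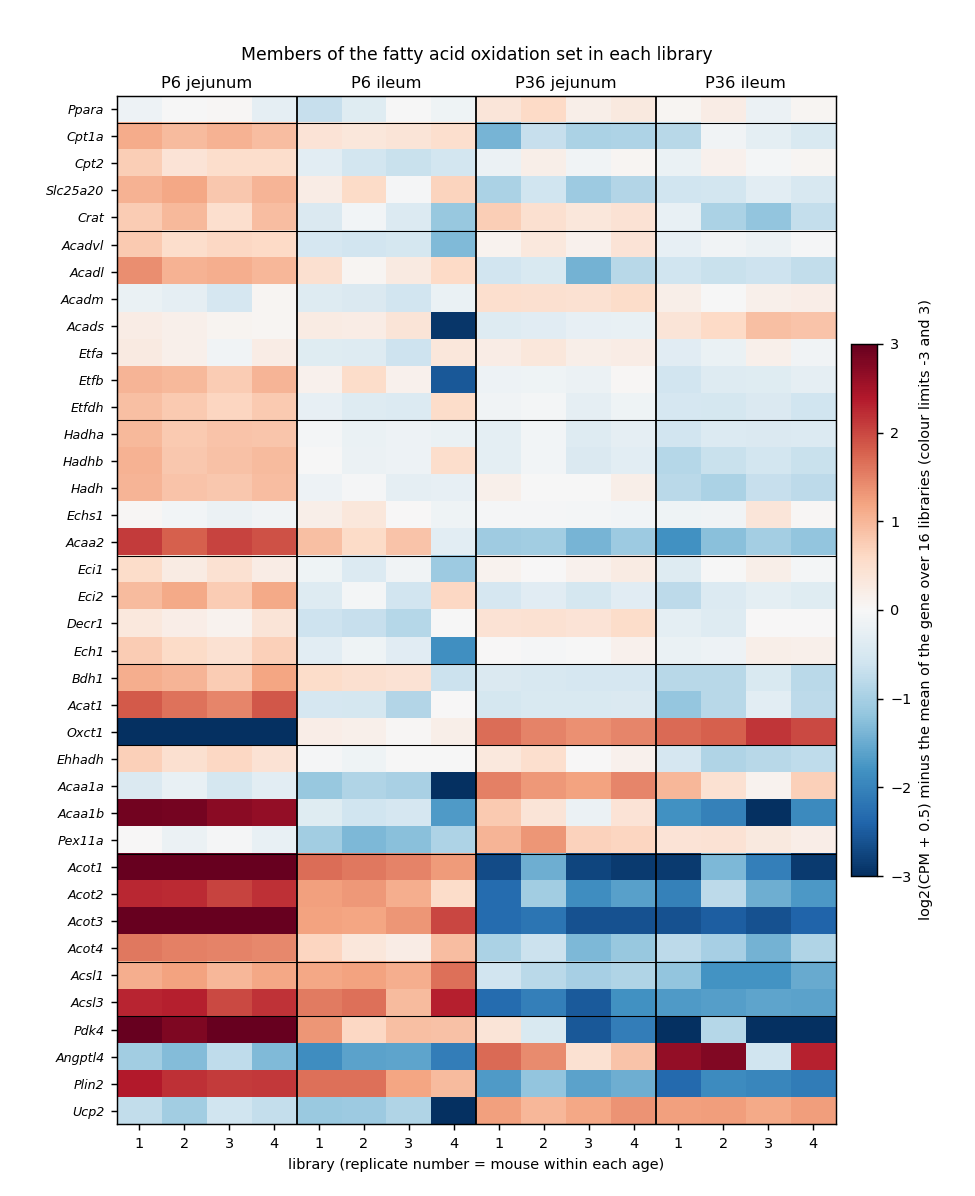
Heat map of the 38 members (rows, by role) in the 16 libraries (columns), where colour is the log2 CPM of a gene minus its mean over all libraries. Most rows are highest in the P6 jejunum, the Oxct1 row runs the other way, and P6 ileum replicate 4 departs from its group in rows such as Acads, Etfb and Ucp2.

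The first comparison asked how the regions differ before weaning. At P6 most members were higher in the jejunum: 26 of the 38 passed the test in that direction (adjusted p below 0.05 over all tested genes, edgeR's quasi-likelihood test), and Oxct1 alone passed as higher in the ileum. These are 71.1% of the members, where 25.9% of all tested genes passed, 11.1% as higher and 14.8% as lower in the jejunum. Members were chosen with earlier results of these data known, so such shares describe the list only. The median log2 fold change, jejunum over ileum, was 0.85 for the members and -0.05 for all tested genes. At the threshold of the study, which also asks for a change above 2 log2 units, 4 members were higher in the jejunum (Acat1, Acaa1b, Acot3 and Pdk4; background 2.2%) and 1 in the ileum (Oxct1; background 4.3%), with 6.5% of all tested genes passing. Within mice, 31 members (81.6%) were higher in the jejunum in 4 of 4 animals, as were 22.9% of all tested genes. Without P6 ileum replicate 4, 30 members passed as higher in the jejunum, with Etfa, Etfb, Acaa1a and Acsl3 added, and 1 as higher in the ileum. Without replicate 2 the counts were 27 and 1.

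After weaning fewer members differed between the regions. At P36, 8 passed as higher in the jejunum (Crat, Hadh, Decr1, Ehhadh, Acaa1b, Pex11a, Acsl1 and Plin2) and 2 as higher in the ileum (Cpt1a and Oxct1), together 26.3% against 16.1% of all tested genes (8.3% and 7.8% by direction). The median was 0.25, beside -0.04 for all tested genes. Within mice, 18 members (47.4%) were higher in the jejunum in 4 of 4 animals, as were 22.5% of all tested genes. In the ileum 5 members (13.2%) were, beside 25.3%. Acaa1b was the 1 member past 2 log2 units, where 3.6% of all tested genes passed, 2.06% as higher in the jejunum. With the mouse as a replicate block, only 1 member was higher in the ileum, since Oxct1 lost its call (adjusted p = 0.0751). The call of Plin2 was lost without P36 jejunum replicate 2 or 4 or P36 ileum replicate 1 or 4 (adjusted p up to 0.123), and that of Pex11a without P36 jejunum replicate 1 or 2 or P36 ileum replicate 4 (adjusted p up to 0.0753). P6 ileum replicate 4 enters this comparison through the estimate of the spread, and without it the counts were 14 and 5. These counts have no share of all tested genes from the same fit beside them.

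A region-by-age interaction compared both regional differences directly, and it passed for 13 members (34.2%) against 8.69% of all tested genes. The jejunal excess was larger at P6 for 11 of them (Cpt1a, Cpt2, Slc25a20, Acadvl, Acadl, Hadha, Acaa2, Eci2, Acat1, Acot1 and Acot4; background 3.68%) and the difference lay more toward the ileum at P6 for 2 (Oxct1 and Acsl1; background 5.01%). Past 2 log2 units, Oxct1 remained, where 3.37% of all tested genes did. Without P6 ileum replicate 4 the counts were 16 and 2, and without P6 jejunum replicate 1 6 and 2. The calls of Acadl, Eci2 and Acot4 were lost in 14, 14 and 13 of the 16 fits that left out 1 library, with adjusted p up to 0.0973, 0.0996 and 0.0795. That of Acaa2 was lost without P6 jejunum replicate 1, P36 jejunum replicate 3 or P36 ileum replicate 2 or 4 (adjusted p up to 0.0651).

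**Figure D2:**
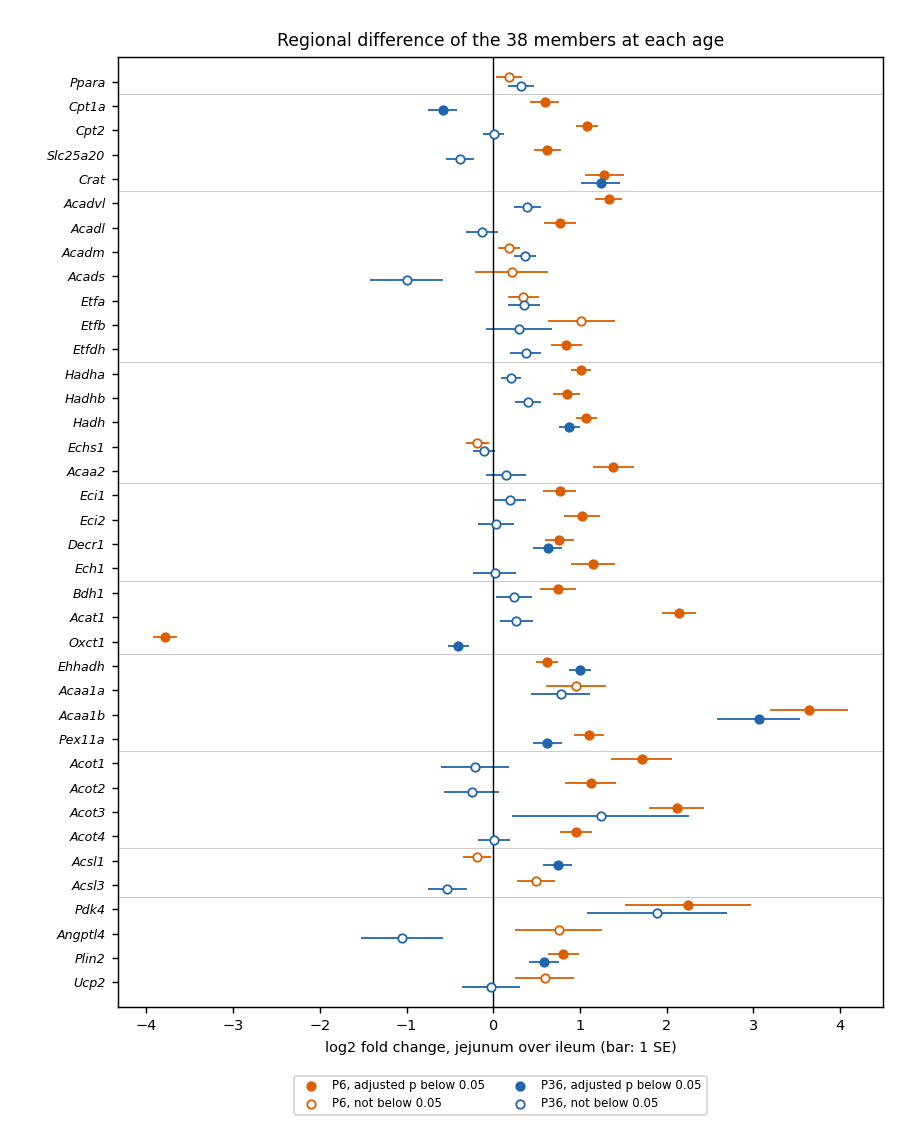
Log2 fold change of each member, jejunum over ileum, at P6 and at P36, with bars of 1 SE from the edgeR fit and filled points where the adjusted p was below 0.05. At P6, 35 of 38 points lie right of 0 and Oxct1 lies far left, and at P36 27 lie right of 0.

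With age, more members fell than rose. In the jejunum 23 members were lower at P36 and 7 higher, together 78.9% against 51.6% of all tested genes (26.9% lower and 24.7% higher). The median log2 fold change, P36 over P6, was -0.98, beside -0.01 for all tested genes. In the ileum 19 were lower and 8 higher, together 71.1% against 55.7% (30.1% and 25.5%), with a median of -0.38, beside -0.03. Past 2 log2 units, 10 members were lower and 2 higher in the jejunum, beside 8.59% and 7.86% of all tested genes, or 16.4% together. In the ileum 7 were lower and 2 higher past this threshold, beside 10% and 6.4%. Without P6 ileum replicate 4 the ileum had 19 lower and 12 higher members. The age groups did not overlap for 25 members lower and 8 higher in the jejunum, where 63.8% of all tested genes did not overlap, 33% lower and 30.9% higher. In the ileum these were 18 lower and 9 higher, where 44.4% did not, 23.6% lower and 20.8% higher. The comparisons of region and of age share libraries.

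**Figure D3:**
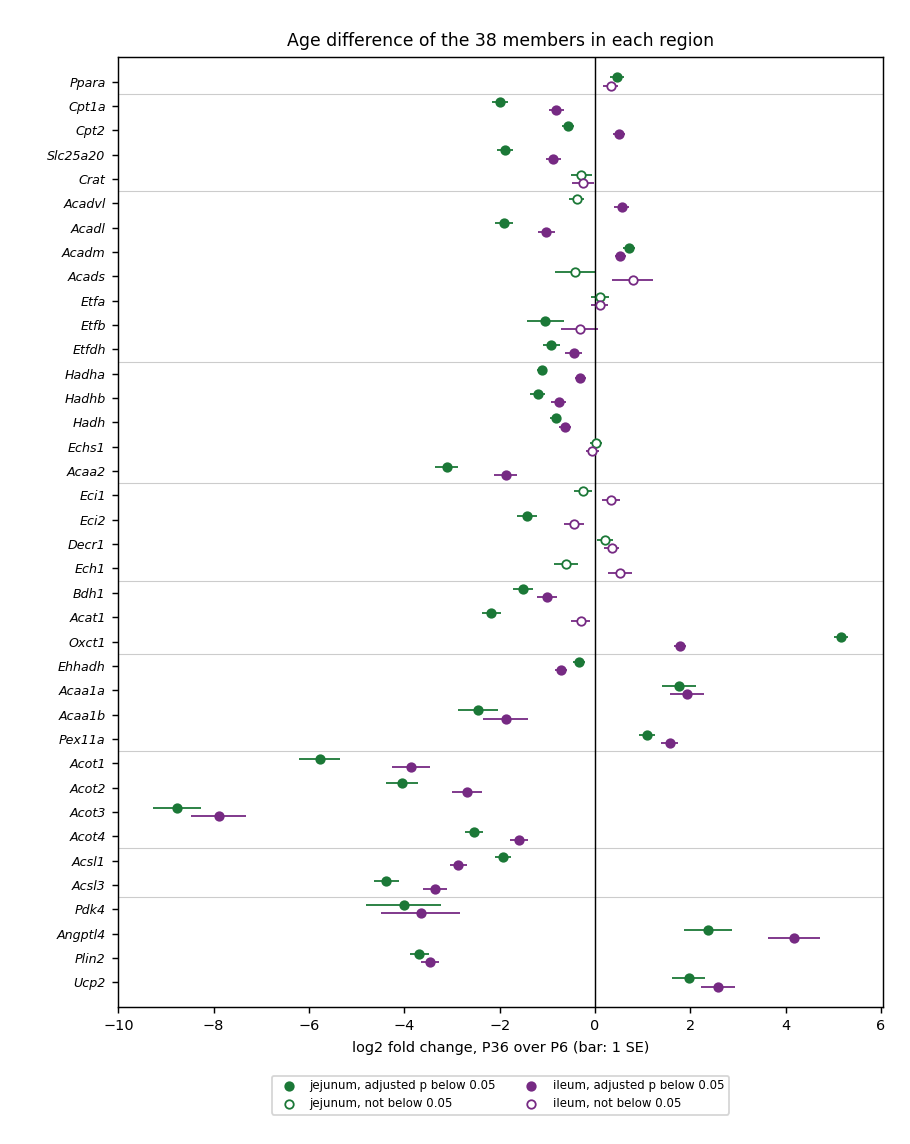
Log2 fold change of each member, P36 over P6, within jejunum and within ileum, with bars of 1 SE and filled points where the adjusted p was below 0.05. The thioesterases, Acsl3, Plin2 and Pdk4 lie far left, and Oxct1, Angptl4, Ucp2, Acaa1a and Pex11a lie right of 0 in both regions.

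Ppara, the receptor, passed 1 of the 5 tests. Its jejunal libraries at P6 read 51.4, 56.5, 58.0 and 47.2 CPM and the ileal ones 34.9, 44.3, 56.0 and 52.1 CPM, and at P36 the values were 73.1, 86.7, 64.2 and 69.8 CPM in jejunum and 59.5, 66.2, 50.3 and 59.0 CPM in ileum. The P36 jejunum lay wholly above the P6 jejunum, with a change of 0.46 ± 0.15 on the log2 scale (± SE, adjusted p = 0.0166), and also above the P6 ileum, whereas all other pairs of groups overlapped. That call was lost without P6 jejunum replicate 4 (adjusted p = 0.0535) or P36 jejunum replicate 2 (adjusted p = 0.0645). Neither regional difference passed (adjusted p = 0.391 at P6 and 0.166 at P36), nor did the change in the ileum (0.33, adjusted p = 0.0757).

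All 4 genes of the carnitine shuttle passed as higher in the jejunum at P6, where 11.1% of all tested genes did. With scaling by library totals alone, the calls of Cpt1a and Slc25a20 were lost (adjusted p = 0.22 and 0.112). Cpt1a, the outer membrane enzyme that controls entry, changed the order of its regions. In the 4 P6 mice the jejunum gave 798, 709.6, 766 and 698 CPM and the ileum 493, 468, 486 and 521 CPM, and at P36 the values were 139, 227, 191 and 193 CPM in jejunum and 208, 343, 303 and 268 CPM in ileum. The jejunum was thus higher at P6 (0.59 ± 0.16, adjusted p = 0.0145) and lower at P36 (-0.58 ± 0.16, adjusted p = 0.0241), with an interaction of 1.18 ± 0.23 (adjusted p = 0.00452). The P36 groups overlapped, and that call was lost without P36 jejunum replicate 1, 3 or 4 or P36 ileum replicate 2 or 3 (adjusted p up to 0.0929).

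Cpt2, on the inner membrane, differed between the regions before weaning and not by the test after it. In the 4 P6 mice the jejunum gave 241, 193, 210.2 and 209 CPM and the ileum 116, 98.2, 90.7 and 99.1 CPM, without overlap, and at P36 the values were 128, 164, 135 and 150.3 CPM in jejunum and 125, 158, 139 and 152 CPM in ileum. It fell in the jejunum (-0.57 ± 0.12, adjusted p = 0.00126) and rose in the ileum (0.51 ± 0.12, adjusted p = 0.00263), and its interaction was 1.07 ± 0.18 (adjusted p = 0.00113). Slc25a20, the carrier of acylcarnitines, fell in both regions. The P6 values were 222, 242, 188 and 217 CPM for jejunum and 126, 160.3, 105 and 172 CPM for ileum, and at P36 the values were 55.7, 70.5, 50.7 and 58.5 CPM in jejunum and 70.5, 72.8, 86.2 and 77.3 CPM in ileum. The P36 ileum lay just above the P36 jejunum, its lowest library higher than the highest jejunal one only beyond the digits given, and the difference did not pass (-0.38, adjusted p = 0.115). Crat, which makes carnitine esters of short acyl groups, was higher in the jejunum at both ages. The P6 values were 179.7, 206, 149.8 and 199.6 CPM for jejunum and 77.3, 99, 79.2 and 47.2 CPM for ileum, and at P36 the values were 176, 147, 134 and 143 CPM in jejunum and 90.3, 53.9, 45.8 and 64.3 CPM in ileum. Its regional log2 fold changes were 1.28 ± 0.22 and 1.24 ± 0.22 (adjusted p = 5.71e-04 and 0.00124).

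The acyl-CoA dehydrogenases, which open the cycle at different chain lengths, moved in different directions with age. Acadvl takes very long chains. Jejunal libraries of the P6 mice held 315, 265, 281 and 276 CPM and ileal libraries 129, 122, 128 and 73.5 CPM, and at P36 the values were 198, 230.1, 202 and 242 CPM in jejunum and 155, 171, 161 and 178 CPM in ileum. It was higher in the P6 jejunum (1.33 ± 0.16, adjusted p = 1.82e-05) and rose in the ileum (0.55 ± 0.16, adjusted p = 0.00709). Acadl, for long chains, fell in both regions (-1.92 ± 0.19 and -1.02 ± 0.19, adjusted p = 4.61e-07 and 2.42e-04). Jejunal libraries of the P6 mice held 811, 633, 657 and 613 CPM and ileal libraries 430.0, 322, 376 and 466 CPM, and at P36 the values were 207, 225, 116 and 172 CPM in jejunum and 205, 193, 202 and 185 CPM in ileum. Acadm, for medium chains, rose from 108 ± 16.9 to 177 ± 4.64 CPM in jejunum and from 94.8 ± 10.3 to 137 ± 8.33 CPM in ileum (adjusted p = 1.44e-04 and 0.00166). Acads, for short chains, passed no test with all libraries, at 102 ± 5.23 and 87.9 ± 51.0 CPM in P6 jejunum and ileum and 75.8 ± 4.17 and 152 ± 24.3 CPM at P36. Without P6 ileum replicate 4, which read 11.9 CPM, it was lower in the P36 jejunum than in the P36 ileum (-1.0 ± 0.10, adjusted p = 8.57e-06).

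The electron transfer proteins pass electrons from these enzymes to the respiratory chain. Etfdh, the membrane-bound member, was higher in P6 jejunum (231 ± 16.0 CPM) than in P6 ileum (129 ± 46.8 CPM) and fell in the jejunum to 122 ± 7.86 CPM (adjusted p = 4.53e-04). Its fall in the ileum (-0.45, adjusted p = 0.042) was not called in 12 of the 16 fits that left out 1 library, and without P6 ileum replicate 4 it was smaller (-0.16 ± 0.09, adjusted p = 0.116). That call also ended with the mouse as a random block in limma (adjusted p = 0.0657). Etfb fell in the jejunum from 302 ± 25.0 to 146 ± 9.15 CPM (-1.04 ± 0.39, adjusted p = 0.0333), a call lost in 7 fits that left out 1 library (adjusted p up to 0.0919) and with that block (adjusted p = 0.083). Etfa, its partner, had group means from 157 to 215 CPM and passed no test.

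Hadha and Hadhb, the subunits of the trifunctional protein for long chains, lie head to head on chromosome 5 with 272 bases between them (mm10, Hadha at chr5:30118304-30154980 on the minus strand and Hadhb at chr5:30155253-30184593 on the plus strand). The stretch before the Hadhb start, chr5:30155003-30155252, therefore lies between both genes and is shown for that reason. It comes from RefSeq (GRCm38.p6, the assembly of mm10) on the plus strand, with GGGCGG boxes in capitals.

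Hadhb upstream: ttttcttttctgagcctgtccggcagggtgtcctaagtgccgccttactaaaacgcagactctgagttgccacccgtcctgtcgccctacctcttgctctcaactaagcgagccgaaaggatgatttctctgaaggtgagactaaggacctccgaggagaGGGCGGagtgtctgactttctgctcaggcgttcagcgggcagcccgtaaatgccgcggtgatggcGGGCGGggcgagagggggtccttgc

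Both subunits were higher in the P6 jejunum (1.01 ± 0.11 for Hadha and 0.85 ± 0.15 for Hadhb) and fell in the jejunum (-1.11 ± 0.11 and -1.20 ± 0.15). Hadha read 817, 712, 749 and 743 CPM in the P6 jejunal and 401, 362, 376 and 359 CPM in the P6 ileal libraries, and at P36 the values were 341, 392, 317 and 347 CPM in jejunum and 281, 312, 308 and 311 CPM in ileum. In the ileum Hadhb fell (-0.76 ± 0.15, adjusted p = 5.75e-04), and Hadha fell too (-0.31 ± 0.11, adjusted p = 0.0284), a call lost without P6 ileum replicate 1 or 3, P36 jejunum replicate 3 or P36 ileum replicate 1 (adjusted p up to 0.101). Counting used strand, so reads of the pair were kept apart.

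Acaa2 fell most among the enzymes of the mitochondrial cycle. Its jejunal libraries at P6 read 1203, 975, 1146 and 1048 CPM and the ileal ones 526, 414, 507 and 224 CPM, and at P36 the values were 133, 134, 105 and 132 CPM in jejunum and 78.9, 116, 138 and 122 CPM in ileum. The fall was 8.67-fold in the jejunum and 3.67-fold in the ileum (adjusted p = 3.62e-08 and 6.03e-06). Hadh kept a jejunal excess at both ages, with 1236 ± 76.2 against 586 ± 46.3 CPM at P6 and 696 ± 47.0 against 378 ± 27.2 CPM at P36. Echs1, the short-chain hydratase, had group means from 128 to 145 CPM and passed no test. Eci1, Eci2, Decr1 and Ech1, which prepare unsaturated fatty acids for the cycle, were all higher in the P6 jejunum, by 0.76 to 1.15 on the log2 scale. Of all tested genes, 11.1% passed in that direction. The excess of Ech1 leaned on P6 ileum replicate 4: within mice it was 2.56 in replicate 4 and 0.70 to 1.06 in the others. Eci2 was the 1 gene of these 4 that passed with age, falling in the jejunum from 185 ± 22.2 to 68.5 ± 4.84 CPM. Decr1 was higher in the jejunum at P36 too (193 ± 7.89 against 125 ± 17.7 CPM, adjusted p = 0.0162), a call lost without P36 ileum replicate 2 (adjusted p = 0.06).

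The 3 ketone body members did not move together. Acat1, the thiolase that makes acetoacetyl-CoA, was far higher in the P6 jejunum than in any other group. Its jejunal libraries at P6 read 812, 696, 627 and 814 CPM and the ileal ones 159, 157, 123 and 228 CPM, and at P36 the values were 156, 165, 164 and 165 CPM in jejunum and 101, 127, 182 and 131 CPM in ileum. The P6 jejunum was 4.42-fold above the P6 ileum (adjusted p = 1.46e-06) and 4.53-fold above the P36 jejunum (adjusted p = 1.81e-07), and the ileum did not pass with age (-0.30). Bdh1, which interconverts acetoacetate and hydroxybutyrate, fell from 537 ± 64.4 to 189 ± 3.70 CPM in jejunum and from 320.2 ± 103 to 159.7 ± 22.2 CPM in ileum (adjusted p = 1.90e-05 and 7.20e-04).

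Oxct1, the enzyme of ketone body use, ran the other way. In the 4 P6 mice the jejunum gave 6.76, 5.49, 5.78 and 5.60 CPM and the ileum 84.5, 81.7, 76.3 and 84.0 CPM, and at P36 the values were 238, 210.0, 191 and 206 CPM in jejunum and 240.0, 257, 329.6 and 291 CPM in ileum. The 4 groups did not overlap. The ileum was 13.8-fold higher at P6 (-3.79 ± 0.14, adjusted p = 1.44e-10). With age Oxct1 rose 35.7-fold in the jejunum and 3.42-fold in the ileum (adjusted p = 7.40e-13 and 1.02e-08), and the interaction was -3.38 ± 0.18 (adjusted p = 3.40e-08). Its P36 difference (-0.40, adjusted p = 0.0326) was lost without P6 ileum replicate 1, P36 jejunum replicate 2, 3 or 4 or P36 ileum replicate 3 or 4 (adjusted p up to 0.129). Oxct1 lies at chr15:4026428-4155344 (mm10, plus strand). The stretch before its start, chr15:4026178-4026427, is shown because this gene departed most from the other members, and it holds neither a CCAAT nor a GGGCGG box.

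Oxct1 upstream: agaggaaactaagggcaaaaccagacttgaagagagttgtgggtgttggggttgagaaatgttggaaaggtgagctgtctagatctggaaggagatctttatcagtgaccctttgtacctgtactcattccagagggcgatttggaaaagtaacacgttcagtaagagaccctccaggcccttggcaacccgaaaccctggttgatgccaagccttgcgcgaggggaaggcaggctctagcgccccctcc

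Of 8 tested genes of the wider ketone body list, 5 fell and 2 rose with age in the jejunum, and 5 fell and 3 rose in the ileum. Among all tested genes, 26.9% fell and 24.7% rose in the jejunum, and 30.1% and 25.5% in the ileum. Slc16a6, a transporter of the monocarboxylate family, fell from 367 ± 37.0 to 40.4 ± 3.75 CPM and from 113 ± 12.7 to 19.0 ± 1.03 CPM, and Aacs, which leads acetoacetate into lipid synthesis, rose from 9.98 ± 1.26 to 46.1 ± 4.83 CPM and from 19.2 ± 10.0 to 107 ± 22.9 CPM.

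**Figure D4:**
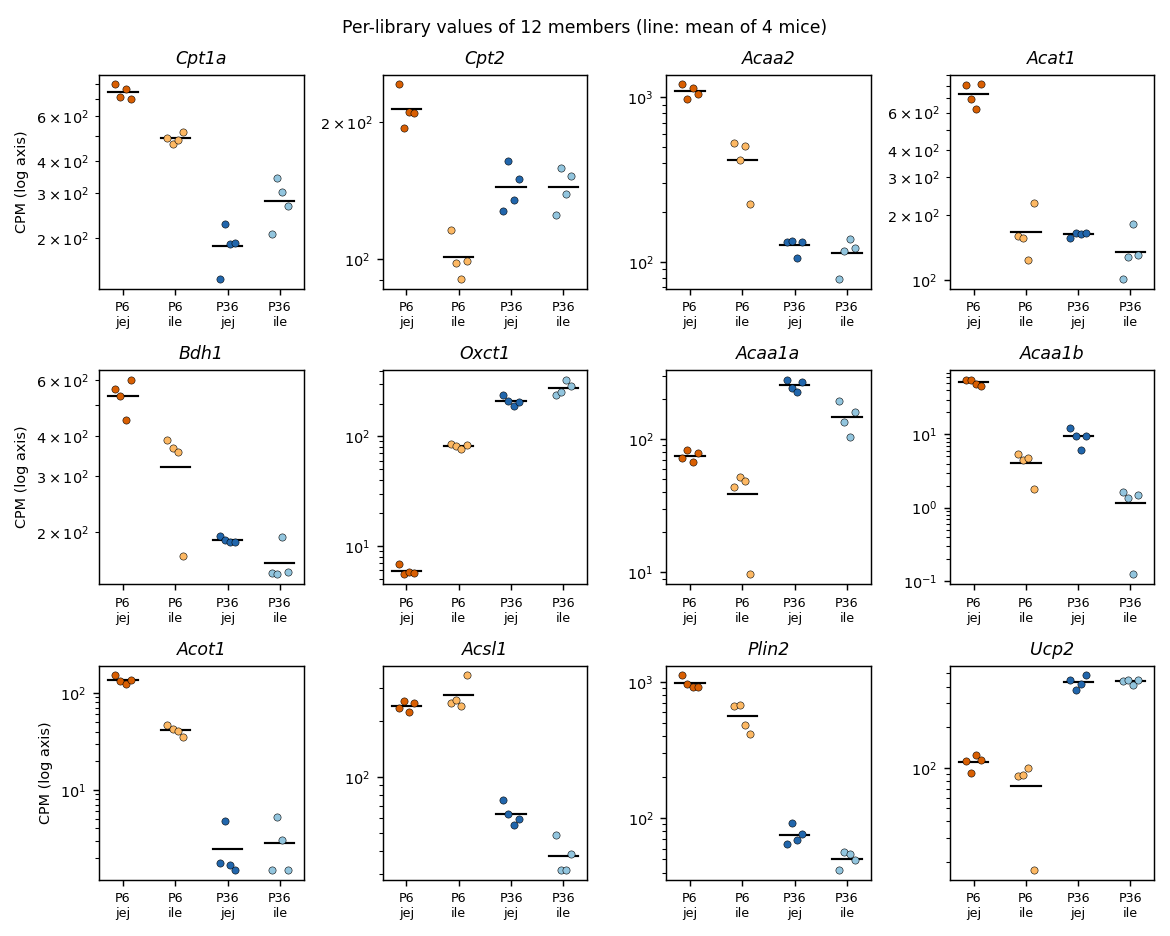
CPM (log axis) of 12 members in the 16 libraries, with a line at the mean of each group. Oxct1 is lowest in the P6 jejunum, where Acat1 and Bdh1 are highest, Cpt1a changes the order of its regions, and Acaa1a and Acaa1b move in opposite directions with age.

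Peroxisomes shorten very long chains, and 3 of the 4 peroxisomal members passed as higher in the jejunum at each age, where 11.1% of all tested genes did at P6 and 8.3% at P36. Ehhadh, the bifunctional enzyme, did so at both. In the 4 P6 mice the jejunum gave 245, 209, 229 and 202 CPM and the ileum 146, 135, 147 and 148 CPM, and at P36 the values were 184, 209, 148 and 162 CPM in jejunum and 104, 78.7, 82.7 and 86.7 CPM in ileum. The log2 fold changes were 0.62 ± 0.13 and 1.00 ± 0.13 (adjusted p = 0.0021 and 6.98e-05). It fell in the ileum (-0.71 ± 0.13), and its smaller fall in the jejunum (-0.33, adjusted p = 0.0407) was lost in 9 fits that left out 1 library, with adjusted p = 0.314 without P36 jejunum replicate 3. Pex11a, which promotes peroxisome division, rose from 9.92 ± 0.843 to 21.1 ± 4.83 CPM in jejunum and from 4.62 ± 0.703 to 13.7 ± 1.06 CPM in ileum (adjusted p = 5.32e-05 and 1.55e-06).

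The peroxisomal thiolases Acaa1a and Acaa1b went opposite ways with age. Acaa1a rose from 75.0 ± 6.97 to 253 ± 24.2 CPM in jejunum and from 38.6 ± 19.5 to 148 ± 38.2 CPM in ileum (adjusted p = 5.97e-04 and 2.54e-04). Acaa1b fell by 2.46 and 1.87 on the log2 scale (adjusted p = 1.52e-04 and 0.00325). The P6 values were 55.8, 54.8, 48.9 and 46.5 CPM for jejunum and 5.33, 4.48, 4.83 and 1.81 CPM for ileum, and at P36 the values were 12.4, 9.44, 6.20 and 9.54 CPM in jejunum and 1.66, 1.36, 0.123 and 1.5 CPM in ileum. It was 12.5-fold higher in the jejunum at P6 and 8.35-fold at P36 (adjusted p = 2.35e-05 and 3.51e-04). Their transcripts were 95.7% identical over 1471 aligned bases, and reads that map to more than 1 place were not counted, so both levels are uncertain. The genes lie 184200 bases apart on chromosome 9. Their upstream stretches, chr9:119341044-119341293 for Acaa1a (plus strand) and chr9:119157094-119157343 for Acaa1b (minus strand), are shown because the pair parted with age. They were 63.4% identical over 216 aligned bases, and capitals mark CCAAT and GGGCGG boxes of either strand.

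Acaa1a upstream: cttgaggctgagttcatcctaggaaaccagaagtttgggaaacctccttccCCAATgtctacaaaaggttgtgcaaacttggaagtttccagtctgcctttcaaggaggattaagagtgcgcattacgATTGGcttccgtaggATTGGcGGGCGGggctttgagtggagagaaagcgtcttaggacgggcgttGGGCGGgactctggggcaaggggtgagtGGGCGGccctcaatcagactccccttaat

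Acaa1b upstream: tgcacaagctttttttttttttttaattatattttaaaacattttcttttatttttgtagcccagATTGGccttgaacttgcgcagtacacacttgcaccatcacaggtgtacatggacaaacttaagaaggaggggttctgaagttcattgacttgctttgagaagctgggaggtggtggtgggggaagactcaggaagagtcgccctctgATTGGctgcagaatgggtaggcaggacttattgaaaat

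Acaa1a had 3 CCAAT and 3 GGGCGG boxes here and a GC content of 53.6%, and Acaa1b had 2 CCAAT boxes, no GGGCGG box and 41.6% GC. Of the members' windows 50% held a CCAAT box and 52.8% a GGGCGG box, beside 33.8% and 32.7% of all promoter windows. Both boxes were chosen after the sequences had been seen, and a match describes letters only.

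The acyl-CoA thioesterases, which free fatty acids from coenzyme A, were all lower after weaning in both regions. Of all tested genes, 26.9% fell with age in the jejunum and 30.1% in the ileum. Acot1, in the cytosol, was close to absent after weaning. The P6 values were 152, 132, 123 and 134 CPM for jejunum and 46.4, 42.8, 40.6 and 35 CPM for ileum, and at P36 the values were 1.77, 4.81, 1.66 and 1.49 CPM in jejunum and 1.49, 5.22, 3.02 and 1.5 CPM in ileum. The fall was 54.9-fold in the jejunum and 14.5-fold in the ileum (adjusted p = 1.70e-08 and 7.24e-07), and its interaction (1.92, adjusted p = 0.0319) was lost in 9 fits that left out 1 library (adjusted p up to 0.0858). Acot2, in mitochondria, fell from 42.7 ± 2.95 to 2.55 ± 1.14 CPM and from 19.6 ± 4.34 to 3.03 ± 1.38 CPM. Acot4, a peroxisomal enzyme, kept a measurable level. Jejunal libraries of the P6 mice held 118, 113, 109.8 and 106 CPM and ileal libraries 61.5, 49.1, 45.8 and 74.1 CPM, and at P36 the values were 19.9, 24.8, 15.0 and 17.4 CPM in jejunum and 22.4, 19.2, 14.3 and 20.4 CPM in ileum.

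Acot3 had 792, 842, 644 and 720 counts in the P6 jejunal libraries and 135, 152, 134 and 243 in the P6 ileal ones, against 2, 4, 0 and 0 counts in P36 jejunum and 0, 1, 0 and 1 in P36 ileum. The ratio of pooled CPM, P6 over P36, was 473 in the jejunum (95% interval 217 to 1290) and 294 in the ileum (81.0 to 2430), intervals that cover counting error only. In the edgeR fit, leaving out P36 jejunum replicate 2 moved the log2 fold change in the jejunum from -8.77 to -9.74. The 4 genes form a cluster on chromosome 12. Acot1 and Acot2 transcripts were 94.3% identical over 1330 bases with an identical run of 273 bases, so the split of reads among these copies is uncertain.

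Both acyl-CoA synthetases, which activate fatty acids, fell in both regions, where 26.9% (jejunum) and 30.1% (ileum) of all tested genes fell. Acsl1 read 235, 256, 222 and 249.7 CPM in the P6 jejunal and 249, 258, 238 and 350.3 CPM in the P6 ileal libraries, and at P36 the values were 74.7, 63.0, 55.1 and 59.0 CPM in jejunum and 48.9, 31.6, 31.6 and 38.3 CPM in ileum. The regions overlapped at P6 and parted at P36, when the jejunum was higher (0.74 ± 0.16, adjusted p = 0.00541), with an interaction of -0.93 ± 0.23 (adjusted p = 0.0192). Acsl3, of the endoplasmic reticulum and lipid droplets, fell 20.8-fold in the jejunum, from 433 ± 45.2 to 20.8 ± 4.58 CPM, and 10.2-fold in the ileum, from 308 ± 122 to 30 ± 1.30 CPM (adjusted p = 1.17e-09 and 1.63e-08).

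Of the regulators, Pdk4 and Plin2 fell with age and Angptl4 and Ucp2 rose. Pdk4 inhibits pyruvate dehydrogenase and so spares glucose. Jejunal libraries of the P6 mice held 103, 66.3, 88.6 and 82.8 CPM and ileal libraries 23.3, 14.0, 17.2 and 17.1 CPM, and at P36 the values were 11.9, 6.40, 1.12 and 1.76 CPM in jejunum and 0.442, 4.76, 0.204 and 0.237 CPM in ileum. It fell 16.2-fold and 12.6-fold (adjusted p = 5.03e-04 and 0.0014). Both values depend on the highest P36 library of the region: without P36 jejunum replicate 1 the log2 fold change in the jejunum was -4.77 instead of -4.02, and without P36 ileum replicate 2 that in the ileum was -5.91 instead of -3.66. Its jejunal excess at P6 (2.25 ± 0.72, adjusted p = 0.0319) was lost without P6 jejunum replicate 1, 3 or 4 or P6 ileum replicate 1, 2 or 3 (adjusted p up to 0.0702). Plin2 fell from 978 ± 93.2 to 75.9 ± 12.5 CPM in jejunum and from 559 ± 132 to 50.5 ± 6.67 CPM in ileum (adjusted p = 3.81e-10 and 8.56e-10). Angptl4 is a secreted inhibitor of lipoprotein lipase. Its jejunal libraries at P6 read 5.98, 4.86, 7.30 and 4.79 CPM and the ileal ones 3.16, 3.83, 3.90 and 2.65 CPM, and at P36 the values were 42.6, 34.9, 17.6 and 23.4 CPM in jejunum and 81.6, 91.0, 8.21 and 65.1 CPM in ileum. Every P36 library lay above every P6 library, with log2 fold changes of 2.37 ± 0.50 and 4.18 ± 0.54 (adjusted p = 9.37e-04 and 8.74e-06). Ucp2, a mitochondrial carrier, rose from 111 ± 14.5 to 431 ± 45.6 CPM and from 73.3 ± 37.6 to 439 ± 17.7 CPM (adjusted p = 2.09e-04 and 1.68e-05).

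Among 18 tested receptors and partners of PPAR-alpha, 2 rose and 2 fell with age in the jejunum and 3 rose and 5 fell in the ileum. Together these were 22.2% and 44.4% of the list, less than the 51.6% and 55.7% of all tested genes. By direction, 24.7% of all tested genes rose and 26.9% fell in the jejunum, and 25.5% and 30.1% in the ileum. Ppard, the related receptor, rose from 23.8 ± 1.89 to 166 ± 20.5 CPM in jejunum and from 19.9 ± 12.3 to 199 ± 23.4 CPM in ileum (adjusted p = 1.48e-04 and 3.24e-05). On the TPM scale Ppara and Ppard stood at 14.1 ± 1.88 and 14.7 ± 1.14 in P6 jejunum and at 18.1 ± 2.68 and 95.3 ± 11.9 in P36 jejunum. Ppargc1a, a coactivator of mitochondrial genes, rose in the jejunum from 25.9 ± 12.6 to 119 ± 9.03 CPM and had 24.7 ± 17 and 24.4 ± 7.79 CPM in ileum, with an interaction of -2.21 ± 0.59 (adjusted p = 0.0297).

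The respiratory chain and citrate cycle, which use the products of oxidation, rose with age. Of 30 genes, 27 rose in the jejunum and 28 in the ileum by the test, where 24.7% and 25.5% of all tested genes rose, with median log2 fold changes of 0.86 and 1.12. Their TPM summed to 12922 ± 1069 and 10560 ± 331 at P6 and 22831 ± 325 and 16713 ± 1027 at P36, jejunum first. The sum of the members equalled 84.1 ± 10.1% of this sum in P6 jejunum, 72.3 ± 3.38% in P6 ileum, 21.5 ± 0.754% in P36 jejunum and 26.1 ± 1.55% in P36 ileum. Between the regions 21 of the 30 (70%) were higher in the jejunum at P6 and 10 (33.3%) at P36. Of all tested genes, 11.1% and 8.3% were. The median log2 fold changes of the 30, jejunum over ileum, were 0.74 and 0.45, beside 0.85 and 0.25 for the members.

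**Figure D5:**
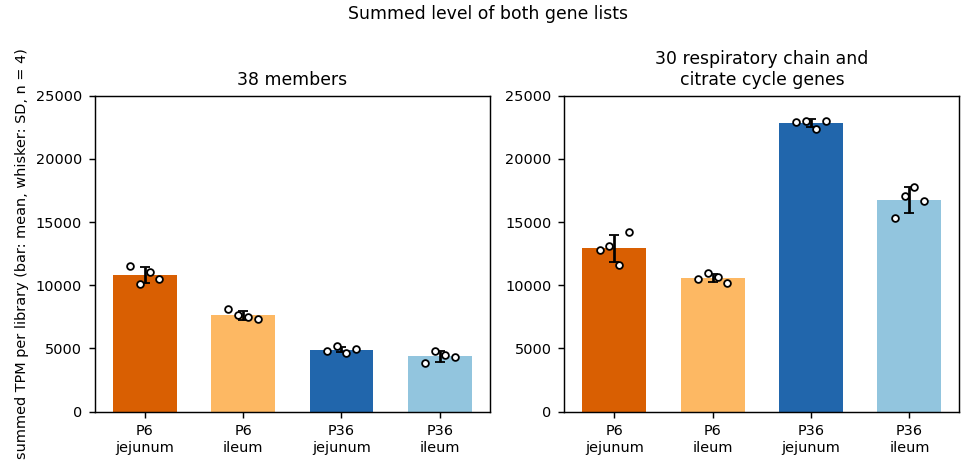
Summed TPM of the 38 members and of 30 respiratory chain and citrate cycle genes in each group; bars are means of 4 libraries, whiskers SD and points libraries. The sum of the members falls from P6 to P36 in both regions while the other sum rises.

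PPAR-alpha binds, with its partner RXR, a direct repeat of AGGTCA with 1 base between the copies. RefSeq promoter windows (250 bases before the start and 50 after) covered 33 of the 38 members in 36 windows, and Crat, Acaa2, Decr1, Acat1 and Angptl4 had no entry. This repeat, read on both strands, was in 0 of the 36 windows, beside 0.0396% of all 32851 windows, and the looser repeat of AGGNCA was in 0 as well, beside 0.381%. With shares this low, 0 of 36 windows says nothing about the members, and sites outside the windows were not searched. A single AGGTCA was in 8 windows (22.2%), beside 16.3% of all windows. Overlapping windows of Acot3 held the same site, and by gene it was in 7 of 33 (21.2%), beside 18.1% of all genes with a window. It was found in Acadm, Echs1, Acot3 and Acot4, which are not shown, and in Cpt1a, Acadvl and Plin2. The 3 shown passed as higher in the P6 jejunum, as did Acot3 and Acot4, whereas Acadm and Echs1 did not. Of all 38 members, 26 passed in that direction, and a link between the hexamer and expression was not tested. The hexamer is in capitals, in either orientation, each sequence on the strand of its gene. The stretches are chr19:3323195-3323224 for Cpt1a (strand +), chr11:70015498-70015527 for Acadvl (strand -) and chr4:86670260-86670289 for Plin2 (strand -).

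Cpt1a: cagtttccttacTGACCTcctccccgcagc

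Acadvl: atggatcaccctAGGTCAggtagaatacag

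Plin2: tttcaggaccccTGACCTaagtcagacagc

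Female and male mice were compared in counts summed over both regions of each mouse. Of the 38 members 0 passed (edgeR's quasi-likelihood test), beside 0.0365% of 13709 genes, and 1 member, Pdk4, had an unadjusted p below 0.05 (log2 fold change, female over male, 1.15 ± 0.49).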

How the data were processed

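Per the labels, the file headers and the methods of the study, the authors prepared stranded mRNA libraries (Kapa), trimmed reads with Trimmomatic 0.38, aligned them with STAR to mm10 and counted exonic reads per gene with featureCounts (Subread 1.6.3), by strand and without reads that map to more than 1 place. The deposited values are raw counts of 24421 genes in 16 libraries. No per-sample column was left unused.

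Counts were tested with edgeR 4.0.16 (R 4.3.3; quasi-likelihood test, TMM scaling, filterByExpr, which left 13429 genes) with 1 mean per group and Benjamini-Hochberg adjustment over all tested genes. The SE is the log2 fold change divided by the square root of F. CPM are scaled by TMM factors, log2 CPM used a prior count of 2, and TPM used the exon lengths in the deposited files. Promoter sequences came from RefSeq, and the transcripts used for identity and transcript GC content came from GENCODE. Both were aligned with Biopython 1.88. The scripts were tested on simulated data.

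Depth was 12159237 to 25947276 counts, so low counts limit precision only for genes near 0. Alternatives were other scalings, filters and thresholds, DESeq2 1.42.0, limma 3.58.1, sex as a covariate, the mouse as a block and each library left out. A GC correction and fits without P6 ileum replicate 2 or 4 were added after the data had been seen.

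The replicate number pairs the regions of 1 mouse. Deviations from group means correlated within a mouse (r = 0.391, 0.383, 0.336 and 0.157 at P6 and 0.288, 0.337, 0.347 and 0.240 at P36). Between mice the means were -0.106 and -0.101. Centring on group means pulls these below 0 when values within a mouse lie above it, so they are no separate comparison.

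Members and gene lists were chosen with earlier results of these data known. Values per library are given for Ppara, the 12 members with the smallest adjusted p in the interaction and the 3 largest changes that passed in each pairwise comparison. Of each gene list up to 4 passing genes per comparison could be named. Some genes are not reported here.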

Additional observations from a re-analysis of the deposited data

Results flagged for a closer look

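In 13 of 152 sets of 4 libraries, 1 library lay far from the others by Dixon's test, where chance gives about 1 in 20. P6 ileum replicate 4 was that library for Acadvl (73.5 CPM), Acads (11.9 CPM), Etfdh (199 CPM), Bdh1 (168 CPM), Acot3 (11.9 CPM) and Ucp2 (17.5 CPM). P6 ileum replicate 2 was it for Ehhadh (135 CPM). After weaning the ileal cases were Hadha in replicate 1 (281 CPM), Pdk4 in replicate 2 (4.76 CPM) and Bdh1 in replicate 3 (193 CPM). The jejunal cases were Acat1 in replicate 1 (156 CPM), Acot1 in replicate 2 (4.81 CPM) and Acaa2 in replicate 3 (105 CPM).

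The regional difference changed with age by the interaction test for 13 members (log2, P6 minus P36). The values were 1.18 for Cpt1a, 1.07 for Cpt2, 1.01 for Slc25a20, 0.94 for Acadvl, 0.90 for Acadl, 0.81 for Hadha and 1.24 for Acaa2. They were 0.99 for Eci2, 1.88 for Acat1, 1.92 for Acot1 and 0.94 for Acot4, and they were negative for Oxct1 (-3.38) and Acsl1 (-0.93).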

How the results depend on the processing

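The 107 gene results gave 2819 gene calls under the alternatives, and many of these come from the same fit. No call reversed, and 145 were lost, 113 of them with 1 library left out. Scaling by library totals alone moved the median gene by -0.29 (P6 region), -0.14 (P36 region) and -0.15 (interaction) on the log2 scale. It gave 3 members higher in the P6 ileum and 5 higher in the P36 jejunum, and put the members' median log2 CPM in the P6 ileum at 6.87. It also ended the P6 calls of Cpt1a (adjusted p = 0.22), Slc25a20 (0.112), Bdh1 (0.102) and Eci1 (0.0838). Without a filter, 1 member was higher in the P36 ileum, and with only the 8 libraries compared 13 were higher in the P36 jejunum. With the threshold of 2 log2 units the counts were 4 higher in the P6 jejunum, 1 and 0 at P36, 2 and 10 with age in the jejunum, 2 and 7 in the ileum, and 0 and 1 in the interaction. The cause of these moves was not tested.

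With the mouse as a replicate block, 1 member was higher in the P36 ileum. A random block for the mouse in limma lost Etfb in the jejunum (adjusted p = 0.083) and Etfdh in the ileum (adjusted p = 0.0657), and of the other named calls the pairing ended that of Oxct1 at P36 (adjusted p = 0.0751, fixed block) and no more. The GC correction, chosen after seeing the data, gave 14 and 4 members at P36 and 18 positive interactions, and with the replicate block 15, 5 and 20. No share of all tested genes is given for these fits, so the rise is no result about the members.

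With 1 library left out, the counts were 25 to 30 (jejunum) and 1 to 1 (ileum) at P6, 6 to 14 and 0 to 5 at P36, 6 to 7 higher and 21 to 26 lower with age in the jejunum, 8 to 12 and 17 to 19 in the ileum, and 6 to 16 positive and 2 to 2 negative interactions. The limits at P36 came without P36 jejunum replicate 2 (6) or replicate 3 (0) and without P6 ileum replicate 4.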

Other observations

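Of 17 other tested targets of PPAR-alpha, 10 were higher in the jejunum at P6 and 7 at P36, where 11.1% and 8.3% of all tested genes were, and 1 was higher in the ileum at P36. Fabp1, the liver-type fatty acid binding protein, had 2552 ± 1061 CPM in P6 jejunum and 18.5 ± 22.3 CPM in P6 ileum. Cd36, a fatty acid transporter, had 444 ± 53.3 and 6.32 ± 5.71 CPM there and fell with age in both regions (adjusted p = 6.08e-04 and 5.39e-04). Cidec, a lipid droplet protein, fell from 365 ± 28.3 to 41.3 ± 10.4 CPM in jejunum and from 94.7 ± 33.0 to 9.89 ± 7.84 CPM in ileum.

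Of 33 tested genes of a wider peroxisomal list, 2 rose and 12 fell with age in the jejunum, and 4 rose and 13 fell in the ileum. Beside these stand 24.7% and 26.9% of all tested genes in the jejunum and 25.5% and 30.1% in the ileum. Slc27a2, a transporter and synthetase of very long chains, had 130.3 ± 16.3 CPM in P6 jejunum and 10.3 ± 1.69 CPM in P6 ileum, and Acox2, which acts on branched chains, had 20.8 ± 4.26 and 117 ± 40.6 CPM. Catalase (Cat) fell from 757 ± 60.7 to 250.2 ± 38.9 CPM in jejunum and from 754 ± 76.1 to 115 ± 16.0 CPM in ileum. Acaca, which makes malonyl-CoA, the inhibitor of Cpt1a, was higher in the ileum at P6 (51.8 ± 9.08 against 15.7 ± 1.48 CPM, adjusted p = 5.75e-07) and at P36 (74.5 ± 6.89 against 33.0 ± 4.11 CPM, adjusted p = 4.19e-05).

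Other lists gave calls in both directions with age, where 24.7% of all tested genes rose and 26.9% fell in the jejunum and 25.5% and 30.1% in the ileum. Of 16 further genes of mitochondrial oxidation, 7 rose and 4 fell in the jejunum and 5 and 5 in the ileum. Of 9 further synthetases, 4 rose and 2 fell in the jejunum and 3 and 2 in the ileum. Of 9 genes of malonyl-CoA control, 1 rose and 4 fell in the jejunum and 3 and 4 in the ileum. Of 10 relatives of the regulators, 2 rose and 4 fell in the jejunum and 3 and 4 in the ileum.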
